A study of Mus musculus with 8 samples.

Results

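The genes described here were the Nlrp4, Nlrp9 and Nlrp14 genes of the mouse oocyte: Nlrp4a, Nlrp4b, Nlrp4c, Nlrp4e, Nlrp4f, Nlrp9a, Nlrp9b, Nlrp9c and Nlrp14. They were taken from the count table by symbol, with known results of the knockout against control comparison in view, and make up 9 of its 37224 genes. The difference between the groups in these 9 genes is therefore given as a description, with no test. The samples were 8 single mature (MII) oocytes, arrested in the second meiotic division, from superovulated mice, 4 of the genotype Setd1bGdf9cKO and 4 of control mice. Setd1b encodes a histone H3 lysine 4 methyltransferase, and the conditional knockout carries the name of Gdf9, a gene active in growing oocytes whose promoter is in common use to drive Cre recombinase there. The labels used here give neither the alleles of the controls, nor the age or strain of the mice, nor whether the 4 oocytes of a genotype came from different females. The spread within a group, and each p-value, thus measures the spread between oocytes that may share a mother.

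NLR proteins carry a nucleotide-binding domain and a stretch of leucine-rich repeats, and many act as sensors of innate immunity that assemble inflammasomes. A branch of the Nlrp genes is known instead for transcripts stored in the oocyte and used by the egg and early embryo, and in the mouse the Nlrp4 and Nlrp9 genes of this branch have multiplied into families of similar copies. Nlrp5 and Nlrp4f proteins belong to or associate with the subcortical maternal complex, a structure beneath the egg membrane that embryos need for cleavage, and loss of Nlrp14 in mouse females stops early development.

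The coding sequences show how alike the copies are. Within the Nlrp4 family the 10 pairs shared 77.8% to 93.9% of aligned coding bases, with a median of 83.3%, and the closest pair was Nlrp4c and Nlrp4e. The 3 Nlrp9 pairs shared 82.3% to 87.4%. Nlrp14 stood apart from the other 8 genes, at 58.7% to 60.8%, within the range between an Nlrp4 and an Nlrp9 gene (57.5% to 61.3% over 15 pairs). Stretches of reference coding sequence as long as a sequencing read (75 bases) illustrate when reads can and cannot be placed. The stretch of Nlrp9a and Nlrp9b below is the same in both genes, at coding bases 589 to 663 counted from the start codon, so that a read from it belongs to neither alone. The stretch of Nlrp4a (coding bases 992 to 1066) differs from that of Nlrp4f (989 to 1063) at 3 positions, shown in capitals.
Nlrp9a: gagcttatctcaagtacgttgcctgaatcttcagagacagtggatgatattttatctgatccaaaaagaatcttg
Nlrp9b: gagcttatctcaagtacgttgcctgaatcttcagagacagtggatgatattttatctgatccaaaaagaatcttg
Nlrp4a: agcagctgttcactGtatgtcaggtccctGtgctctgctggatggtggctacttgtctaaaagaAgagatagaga
Nlrp4f: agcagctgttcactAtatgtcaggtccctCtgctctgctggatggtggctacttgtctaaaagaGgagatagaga

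**Figure D1:**
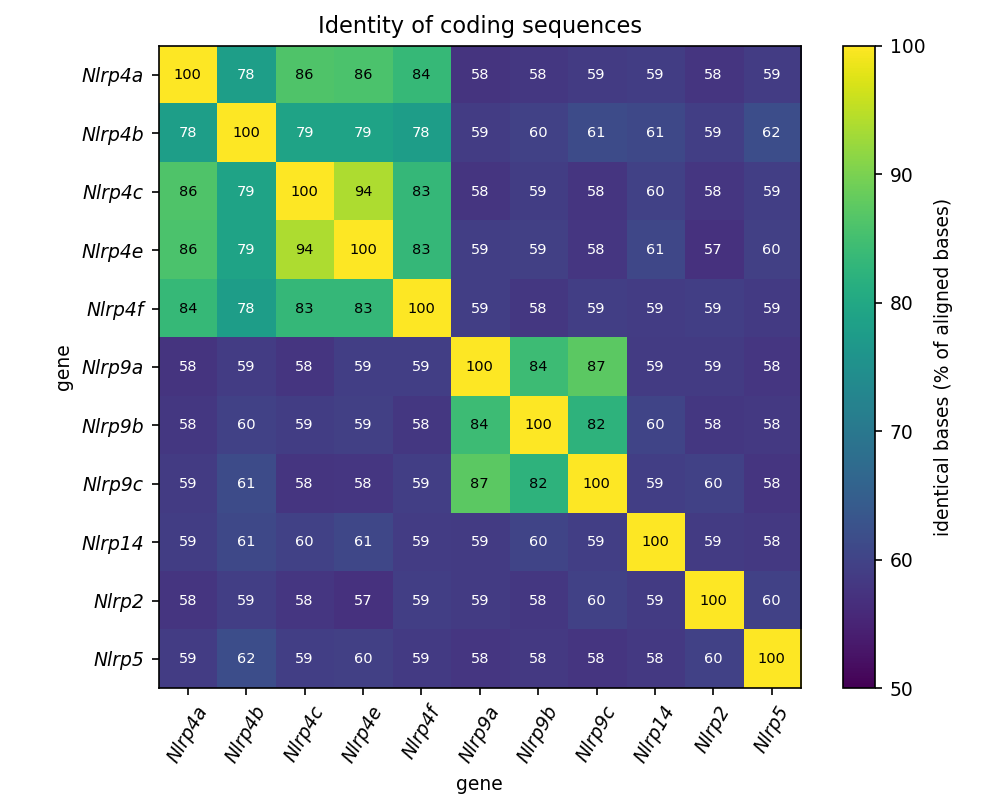
Identity of the coding sequences of the 9 genes and of Nlrp2 and Nlrp5, as the percentage of identical bases among aligned bases (colour and printed value; both axes list the genes). The Nlrp4 and Nlrp9 families form separate blocks, at 77.8% to 93.9% and 82.3% to 87.4%, and Nlrp14 lies outside both.

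Exact sharing was rarer than overall likeness. Of all 75-base windows of the transcript with the longest coding sequence, 0% in Nlrp4b and Nlrp14 and 0.358% in Nlrp4a also occurred in the transcripts of another gene. The share was 1.56% in Nlrp9c, 2.21% in Nlrp9a, 2.42% in Nlrp4f, 3.09% in Nlrp9b and 3.42% in Nlrp4c. Nlrp4e was the exception: 668 of its 3308 windows (20.2%) occurred elsewhere, 619 of them in the predicted gene Gm8486, which is not a row of the count table. Reads with several equally good places carry a low mapping quality and may have been dropped, and Nlrp4e has the largest share of such windows among the 9. Bases of a gene outside the transcript used, and copies in the genome outside annotated transcripts, were not searched.

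Of the 9 genes, 8 lie on chromosome 7 (mm10). Nlrp4c is at chr7:6045161-6105149, Nlrp4b at chr7:10687793-10730168, Nlrp9b at chr7:20008023-20073306 and Nlrp4e at chr7:23301275-23362270. Nlrp9c, Nlrp4a and Nlrp9a are adjacent, at chr7:26322473-26403700, chr7:26435113-26476142 and chr7:26535023-26575615, with Nlrp9c on the minus strand and the other two on the plus strand. Nlrp14 is at chr7:107166990-107198102. Nlrp4f lies on the minus strand of another chromosome, at chr13:65177111-65205716.

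The libraries held 9488899 to 11313502 counts in knockout oocytes and 11029602 to 13519404 in control oocytes. Levels are given as CPM, the share of a library's counts on a fixed common scale, adjusted with TMM factors of 1.07 to 1.22 in knockout and 0.799 to 0.946 in control libraries, and between genes as CPM per kilobase of gene (RPKM). Setd1b, the targeted gene, ran from 2.97 to 5.06 CPM in knockout oocytes and from 9.24 to 12.8 CPM in control oocytes, which gave a log2 fold change of -1.44 ± 0.41 (SE, edgeR quasi-likelihood test, adjusted p = 0.0221), which did not pass without knockout replicate 3 (-1.33), without control replicate 2 (-1.36) or with scaling by library totals alone (-1.04). All 8 oocyte markers were measured, and their summed level was 8870 to 13048 CPM in knockout and 12142 to 14857 CPM in control oocytes. Within them the zona genes Zp1, Zp2 and Zp3 were higher and Oosp1 and Dazl lower in knockout oocytes. The 11 cumulus and granulosa markers summed to 110.1 to 184 CPM in knockout and 216 to 239 CPM in control oocytes. Amh, Foxl2, Inha, Ptx3 and Tnfaip6 were at 0 in all libraries. Only 3 could be tested, and they carried nearly all of that sum. In mean CPM of knockout against control, Esr2 was 63.2 against 109.9 (edgeR adjusted p = 0.0103). Cyp19a1 was 49.3 against 88.8 (edgeR adjusted p = 0.0367), and Kitl, which did not pass, 21.5 against 28.3. The 6 blood markers summed to 3.02 to 13.7 CPM in knockout and 0.501 to 3.42 CPM in control oocytes, with Ptprc, Lyz2 and Adgre1 at 0 in all libraries. Only Cd68 of them could be tested, at 7.90 against 1.35 CPM (edgeR adjusted p = 0.0403). The part of these marker differences in the results was not tested.

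All 9 genes passed the filter on low counts. Of them 7 were lower in knockout oocytes by the fit across all genes (adjusted p under 0.05) and 0 were higher, where 25.8% of the 11066 genes tested were called in either direction, 12.2% lower (1347 genes) and 13.6% higher (1503 genes). Scaling by library totals alone turned that background to 504 lower and 2382 higher, and removing a trend with gene length to 2332 lower and 1028 higher. The same 7 genes had no overlap between the 4 knockout and the 4 control libraries, which held for 13.6% of all genes tested in the downward direction. Since the genes were chosen on this contrast, these counts are a description only. At an unadjusted p under 0.05, 1 of the 9 genes was higher, and DESeq2 called 1 higher, in both cases Nlrp14. The median log2 fold change of the 9 genes was -1.35, against 0.10 over all genes tested.

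Nlrp4f, whose protein takes part in the cytoplasmic lattices of the mouse egg, was the most abundant Nlrp4 gene in both groups. It measured 664, 674, 1016 and 888 CPM in the 4 knockout oocytes and 2168, 1933, 1891 and 2245 CPM in the 4 control oocytes. Every control oocyte lay above every knockout oocyte, and the control values spread little, with a coefficient of variation of 8.45% against 21.2% in knockout oocytes. The mean was 811 ± 172 CPM in knockout and 2059 ± 174 CPM in control oocytes (SD, n = 4 each), which gave a log2 fold change of -1.35 ± 0.18 (SE).

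Nlrp4a and Nlrp4b stood close to Nlrp4f in the size of the difference. Nlrp4a measured 579, 501, 669.8 and 763 CPM in knockout oocytes and 1702, 1796, 1441 and 1499.95 CPM in control oocytes, which gave a log2 fold change of -1.36 ± 0.17 (SE). Nlrp4b measured 299, 383, 445 and 386 CPM in knockout oocytes and 1091, 895, 793 and 1074 CPM in control oocytes, which gave a log2 fold change of -1.35 ± 0.18 (SE). In neither gene did the groups overlap. Nlrp4a, Nlrp4b and Nlrp4f were thus 2.56, 2.55 and 2.54 times lower in knockout than in control oocytes, although they lie at distant places of chromosome 7 and on chromosome 13.

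Nlrp4c was the least abundant of the 9 genes. It measured 10.7, 16.8, 12.1 and 18.0 CPM in knockout oocytes and 20.1, 23.7, 38.6 and 33.0 CPM in control oocytes, which gave a log2 fold change of -1.0 ± 0.31 (SE). The groups did not overlap, but the highest knockout oocyte came near the lowest control oocyte. Over the 8 fits that each left out 1 library its log2 fold change ran from -1.15 to -0.83. It did not pass the threshold in 5 of them, those without knockout replicate 1, 2 or 3 or control replicate 3 or 4.

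Nlrp4e, needed by early mouse embryos to pass the cleavage stages, was the Nlrp4 gene that overlapped between the groups. It measured 96.3, 89.6, 107.5 and 121 CPM in knockout oocytes and 129, 182, 139 and 85.3 CPM in control oocytes, where control replicate 4 was the lowest of all 8 libraries. The means were 103.7 ± 13.9 CPM in knockout and 134 ± 39.6 CPM in control oocytes (SD, n = 4 each), which gave a log2 fold change of -0.37 ± 0.23 (SE) that was 0.0025 when scaled by library totals alone and -0.75 when a trend with gene length was removed. Shares of the summed counts of the 5 Nlrp4 genes in the same library need no scaling between libraries. Nlrp4e made up 5.84%, 5.38%, 4.78% and 5.58% of them in knockout oocytes and 2.53%, 3.76%, 3.23% and 1.73% in control oocytes. These shares did not overlap: Nlrp4e held 5.39% ± 0.451 of the Nlrp4 counts in knockout and 2.81% ± 0.882 in control oocytes (SD, n = 4 each). Most of these counts were from Nlrp4a, Nlrp4b and Nlrp4f, which were lower. As the genes were chosen on this contrast, the shares are a description only. The reads that Nlrp4e shares with Gm8486 and other copies bear on its fold change and its shares, and their part was not tested.

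The other Nlrp4 shares were close between the groups. Nlrp4f made up 41.7% ± 2.32 in knockout and 43.0% ± 2.32 in control oocytes, Nlrp4a 32.5% ± 2.97 in knockout and 33.6% ± 2.79 in control, and Nlrp4b 19.7% ± 2.41 in knockout and 20.0% ± 1.78 in control (SD, n = 4 each). The difference between the groups in each of these 3 shares was smaller than the SD of either group. A sum over the 5 Nlrp4 genes does not depend on how reads are split among these 5. Reads dropped, or placed on Nlrp4g or other copies, are not in it. Nlrp4 reached 1649, 1665, 2251 and 2176 CPM in knockout oocytes and 5110.1, 4830.1, 4302 and 4938 CPM in control oocytes. The groups were far apart in this sum, with a mean difference of -1.32 on the log2 scale.

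Nlrp9b showed the widest difference of the 9 genes. This gene, known in the mouse intestine as a sensor of viral RNA, measured 90.5, 114, 131 and 97.0 CPM in knockout oocytes and 487, 369.6, 423 and 456 CPM in control oocytes. The lowest control oocyte was above the highest knockout oocyte by a wide margin. The mean was 108 ± 18.2 CPM in knockout and 434 ± 50.05 CPM in control oocytes (SD, n = 4 each), which gave a log2 fold change of -2.0 ± 0.18 (SE). The authors' deposited table lists -2.04 as its unshrunken log2 fold change.

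Nlrp9a and Nlrp9c varied much more among control oocytes than Nlrp9b did. Nlrp9c, the most abundant Nlrp9 gene, measured 809, 909.6, 1291 and 971 CPM in knockout oocytes and 3027, 1704, 1448 and 3556 CPM in control oocytes, which gave a log2 fold change of -1.29 ± 0.28 (SE). Nlrp9a measured 272, 361, 467 and 246 CPM in knockout oocytes and 1107, 638, 675 and 1266 CPM in control oocytes, which gave a log2 fold change of -1.45 ± 0.27 (SE). Control replicates 1 and 4 were the high ones in both genes, while knockout replicate 3 was the highest knockout oocyte in both, and the groups did not overlap in either. The coefficient of variation over the control oocytes was 41.9% in Nlrp9c and 34.0% in Nlrp9a, but 11.5% in Nlrp9b. Control replicates 1 and 4 also had the lowest TMM factors, 0.824 and 0.799. As a share of all counts, without these factors, summed Nlrp9 was still highest in them. It was 0.380% and 0.421% there, against 0.251% and 0.240% in control replicates 2 and 3. The part of the scaling in the size of their values was not tested.

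Within the Nlrp9 family the share of Nlrp9b was the one that did not overlap between the groups. Nlrp9b made up 7.73%, 8.25%, 6.93% and 7.38% of the Nlrp9 counts in knockout oocytes and 10.5%, 13.6%, 16.6% and 8.64% in control oocytes. Control replicate 4 came near the knockout values. As the genes were chosen on this contrast, the shares of the Nlrp9 counts are a description only. The share of Nlrp9a was 23.2% ± 3.19 in knockout and 24.5% ± 1.35 in control oocytes, and that of Nlrp9c 69.2% ± 3.42 in knockout and 63.1% ± 4.58 in control oocytes (SD, n = 4 each), both overlapping. The ratio of Nlrp9b to Nlrp9a counts was 0.331 ± 0.0474 in knockout and 0.502 ± 0.123 in control oocytes (SD, n = 4 each), and here knockout replicate 4 (0.394) lay above control replicate 4 (0.360). Summed over the family, Nlrp9 reached 1171, 1385, 1889 and 1314 CPM in knockout oocytes and 4621, 2712, 2546 and 5278 CPM in control oocytes, a mean difference of -1.35 on the log2 scale.

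Nlrp14, whose protein is reported to act with Uhrf1 and with the mitochondrial exchanger Slc8b1 in the mouse egg, was the gene with the higher mean in knockout oocytes. It measured 2142, 2347, 2146 and 1484 CPM in knockout oocytes and 1178, 1328, 964 and 1871 CPM in control oocytes. In these TMM-scaled values the groups overlapped through 1 library of each. Knockout replicate 4 lay below control replicate 4, while the other 3 knockout oocytes lay above all control oocytes. As a share of all counts, without TMM factors, the groups did not overlap (0.168% to 0.275% in knockout, 0.0911% to 0.149% in control). The mean was 2029.9 ± 377 CPM in knockout and 1335 ± 387 CPM in control oocytes (SD, n = 4 each), which gave a log2 fold change of 0.60 ± 0.22 (SE) that did not pass the threshold across all genes. Without knockout replicate 4 it was 0.73 and without control replicate 4 it was 0.81, and in both it passed. With a length trend removed it was 0.20, and scaled by library totals alone it was 1.02 and passed.

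**Figure D2:**
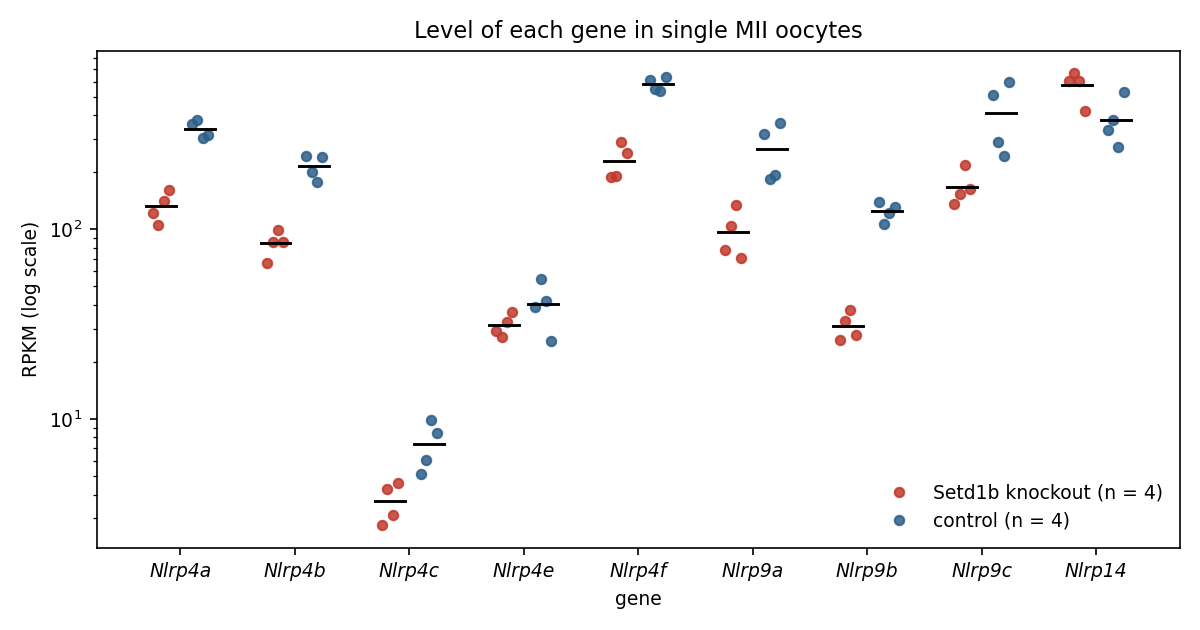
RPKM of each of the 9 genes (log scale) in 4 Setd1b knockout oocytes (red, left of each pair) and 4 control oocytes (blue, right of each pair); each point is 1 library and each black bar the group mean. In 7 genes all knockout points lie below all control points, Nlrp4e overlaps, and Nlrp14 is higher on average in knockout oocytes (574 against 377 RPKM).

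The order of the 9 genes by level per length differed between the groups mainly through Nlrp14. It rests on the deposited gene lengths, 5935 bases for Nlrp9c and 3527 for Nlrp4f. The transcript of Nlrp9c with the longest coding sequence has 3216 bases. In mean CPM, Nlrp9c exceeded Nlrp4f in both groups (995 against 811 in knockout, 2434 against 2059 in control). In knockout oocytes Nlrp14 came first at 574 ± 106 RPKM, above Nlrp4f at 229.8 ± 48.7 RPKM with no overlap of the libraries. Nlrp9c (168 RPKM), Nlrp4a (132 RPKM), Nlrp9a (96.8 RPKM) and Nlrp4b (84.3 RPKM) followed, each overlapping its neighbour in the order. Nlrp4e and Nlrp9b (31.3 and 31.1 RPKM) overlapped each other and lay below Nlrp4b, and Nlrp4c (3.70 RPKM) was last. In control oocytes Nlrp4f came first at 584 ± 49.3 RPKM, then Nlrp9c (410.1 RPKM), Nlrp14 (377 ± 109 RPKM), Nlrp4a (338 RPKM), Nlrp9a (265 RPKM) and Nlrp4b (215 RPKM), each overlapping the next. Nlrp9b (125 RPKM), Nlrp4e (40.4 RPKM) and Nlrp4c (7.39 RPKM) came below them without overlap. Among all 11066 genes tested, Nlrp14 ranked 54 in knockout and 148 in control oocytes by mean RPKM, Nlrp4f 198 in knockout and 86 in control, and Nlrp9b 1746 in knockout and 516 in control.

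Ratios of counts within a library need no scaling between libraries. Those of Nlrp14 to its relatives take in the lower Nlrp4 and Nlrp9 as well as Nlrp14 itself. In CPM the Nlrp14 mean was 1.52 times higher in knockout oocytes, with overlap. The Nlrp4 and Nlrp9 sums were 2.48 and 2.63 times lower. As the genes were chosen on this contrast, the ratios are a description only. The count of Nlrp14 divided by the summed count of Nlrp4 was 1.299, 1.41, 0.954 and 0.682 in knockout oocytes and 0.231, 0.275, 0.224 and 0.379 in control oocytes. The lowest knockout ratio exceeded the highest control ratio, and the mean ratio was 3.92 times higher in knockout than in control oocytes. Divided by the summed count of Nlrp9 it was 1.83, 1.69, 1.14 and 1.13 in knockout oocytes and 0.255, 0.490, 0.379 and 0.354 in control oocytes, again without overlap. The 2 families kept their balance to each other, with Nlrp4 at 1.36 ± 0.219 times the Nlrp9 count in knockout and 1.38 ± 0.420 times in control oocytes (SD, n = 4 each). All 9 genes together made up 0.617% ± 0.0460 of counts in knockout and 0.855% ± 0.0980 in control oocytes (SD, n = 4 each).

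**Figure D3:**
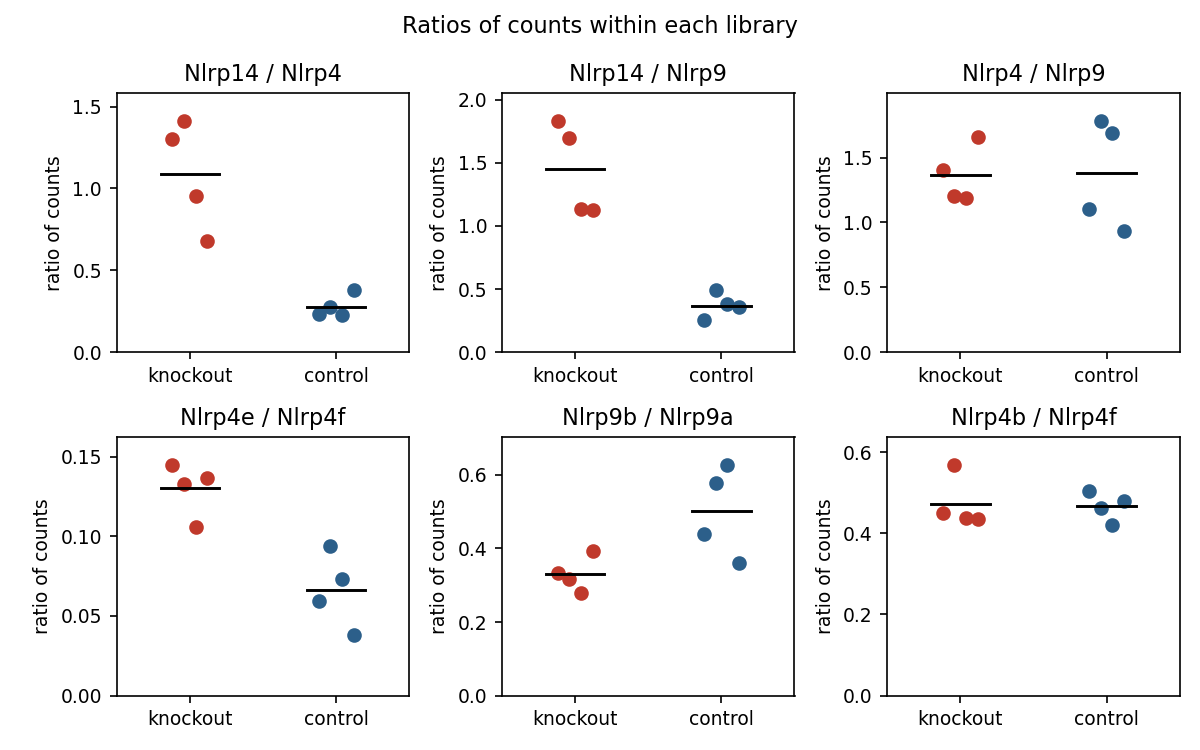
Ratios of counts within each library for 6 pairs of genes or families, with the 4 knockout oocytes in red at the left and the 4 control oocytes in blue at the right of each panel; points are libraries and bars are means. Nlrp14 over Nlrp4, Nlrp14 over Nlrp9 and Nlrp4e over Nlrp4f do not overlap between the groups, while Nlrp4 over Nlrp9 (1.36 and 1.38) and Nlrp4b over Nlrp4f (0.473 and 0.466) have nearly the same means in knockout and control oocytes. The genes were chosen on this contrast, so all ratios are a description only.

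The genes with the most similar profile over the 8 libraries were sought among 6498 genes of at least 10 CPM, as the smallest root-mean-square distance between centred log2(CPM + 1) values. For Nlrp4f the nearest were Gnb1, a G protein beta subunit (distance 0.107), Prlr, the prolactin receptor (0.119), and Ggct, gamma-glutamylcyclotransferase (0.126). Its relatives Nlrp4b and Nlrp4a came 6 and 16 in that order, and Nlrp4c came 985. For Nlrp9c the nearest were Trappc2, a subunit of a vesicle tethering complex (0.0523), Plac8 (0.0983) and 2810408I11Rik (0.119), while Nlrp9a came 54 and Nlrp9b 1074. For Nlrp14 the nearest were Kcnn2, a calcium-activated potassium channel (0.158), Ethe1, a mitochondrial sulfur dioxygenase (0.164), and Npc2, a lysosomal cholesterol carrier (0.169). The distances take in both the difference between the groups and the variation within them, are over the same 8 libraries, and were not tested.

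Promoters of 8 of the 9 genes, in 10 entries, were found in the RefSeq table of the build GRCm38.p6, each from 250 bases before the start site to 50 after it. Nlrp14 was not matched. The promoters of Nlrp9a and Nlrp9c were identical at 244 of 253 aligned bases (96.4%). Fewer than 150 bases of that of Nlrp9b could be aligned to either. Those of Nlrp4b, Nlrp4c and the second entry of Nlrp4a were 78.1% to 80.4% alike, while the first entry of Nlrp4a fell short of 150 aligned bases with them. A repeated CCAAT, the core of a common promoter element, was seen in these sequences and then counted, so its choice followed from them. On either strand CCAAT stood in 37.4% of the 32851 promoters, and 3 or more copies stood in 3.37%. It was present in 7 of the 10 entries, with 3 copies each in Nlrp9a, Nlrp9c and Nlrp4c (in Nlrp4c 2 of them on the strand of the gene). None was present in the windows of Nlrp9b, of Nlrp4f or of the first of the 2 entries of Nlrp4a. Each window rests on its annotated RefSeq start, and sequence outside it was not searched. That of Nlrp4f opens with bases like those just after the start of the second Nlrp4a entry. In GENCODE M21 Nlrp9b starts further upstream. The stretches below run 5′ to 3′ on the strand of the gene, from 20 bases before the first CCAAT on that strand to the base before the RefSeq start, with CCAAT in capitals. They are shown because the copies stand at the same distances from each other in Nlrp9a as in Nlrp9c, and in Nlrp4b as in Nlrp4c: Nlrp9a at chr7:26534952-26535022 (plus strand), Nlrp9c at chr7:26403701-26403815 (minus strand), Nlrp4b at chr7:10687694-10687792 (plus strand), Nlrp4c at chr7:6045098-6045160 (plus strand) and the second entry of Nlrp4a at chr7:26435544-26435613 (plus strand).
Nlrp9a: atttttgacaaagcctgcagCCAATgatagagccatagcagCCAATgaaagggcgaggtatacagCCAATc
Nlrp9c: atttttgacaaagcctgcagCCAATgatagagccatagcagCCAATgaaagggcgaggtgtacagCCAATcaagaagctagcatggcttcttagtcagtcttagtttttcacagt
Nlrp4b: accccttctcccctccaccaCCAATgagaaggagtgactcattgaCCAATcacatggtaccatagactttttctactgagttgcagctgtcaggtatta
Nlrp4c: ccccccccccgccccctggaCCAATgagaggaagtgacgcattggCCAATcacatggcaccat
Nlrp4a: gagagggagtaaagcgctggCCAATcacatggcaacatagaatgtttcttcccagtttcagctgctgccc

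Other motifs were rarer or too common to tell the promoters apart. TATAAA stood in 1 of the 10 entries and in 13.6% of all promoters. TAATTG, an element bound by the oocyte factor Nobox, stood in 2 of 10 entries (Nlrp9a and Nlrp9b) and in 8.0% of all promoters. TAATCC, the core bound by Obox and Otx proteins, stood in 1 of 10 and in 7.06%, and CANNTG, the E-box of which Figla binds a form, in 10 of 10 and in 72.3%. All were searched on both strands. A match is a string in the reference, not a bound site.

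Other NLR genes were examined next, 23 in all. Only 6 had enough counts to be tested, 10 had no count in any library, and the most counts of an untested gene was 46. Of the 6, 3 were higher and 2 lower in knockout oocytes, where 13.6% and 12.2% of all genes tested were called in these directions, and the median log2 fold change was 0.68. Among them were the maternal-effect genes Nlrp5 and Nlrp2. Nlrp5 measured 1218, 1243, 1050.2 and 1000.5 CPM in knockout oocytes and 315, 321, 274 and 515 CPM in control oocytes, which gave a log2 fold change of 1.66 ± 0.21 (SE, edgeR quasi-likelihood test, adjusted p = 0.000298). Of its 75-base windows 5.13% also occur in the pseudogene Nlrp5-ps, which held 18 counts in knockout and 4 in control oocytes. Nlrp2 measured 170.4, 212, 315 and 278 CPM in knockout oocytes and 79.03, 60.3, 58.1 and 121 CPM in control oocytes, which gave a log2 fold change of 1.62 ± 0.27 (SE, edgeR quasi-likelihood test, adjusted p = 0.00161). Neither gene overlapped between the groups, and Nlrp5 lies 23612 bases from Nlrp4e on chromosome 7.

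Nlrp4g, an Nlrp4 copy on chromosome 9 whose reference transcript has no coding sequence, was lower. It measured 147, 140.5, 237 and 145 CPM in knockout oocytes and 279, 281, 231 and 298 CPM in control oocytes, which gave a log2 fold change of -0.70 ± 0.20 (SE, edgeR quasi-likelihood test, adjusted p = 0.0226). Knockout replicate 3 lay above control replicate 3, so the groups overlapped, and 54 of the 75-base windows of Nlrp4g are shared with Nlrp4f. It did not pass without knockout replicate 1, 2 or 4, with log2 fold changes of -0.63, -0.62 and -0.64. The bacterial sensor Naip1 was higher, at 32.9 ± 8.67 CPM in knockout and 4.99 ± 1.74 CPM in control oocytes (SD, n = 4 each; edgeR quasi-likelihood test, adjusted p = 0.000422). Its inflammasome partner Nlrc4 was lower, at 16.1 ± 4.79 CPM in knockout and 43.3 ± 22.1 CPM in control oocytes (SD, n = 4 each; edgeR quasi-likelihood test, adjusted p = 0.0147), a call that was lost with scaling by library totals alone (log2 fold change -1.06). Nod2, a sensor of bacterial cell walls, had a log2 fold change of -0.25 ± 0.56 (SE) and did not pass the test.

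**Figure D4:**
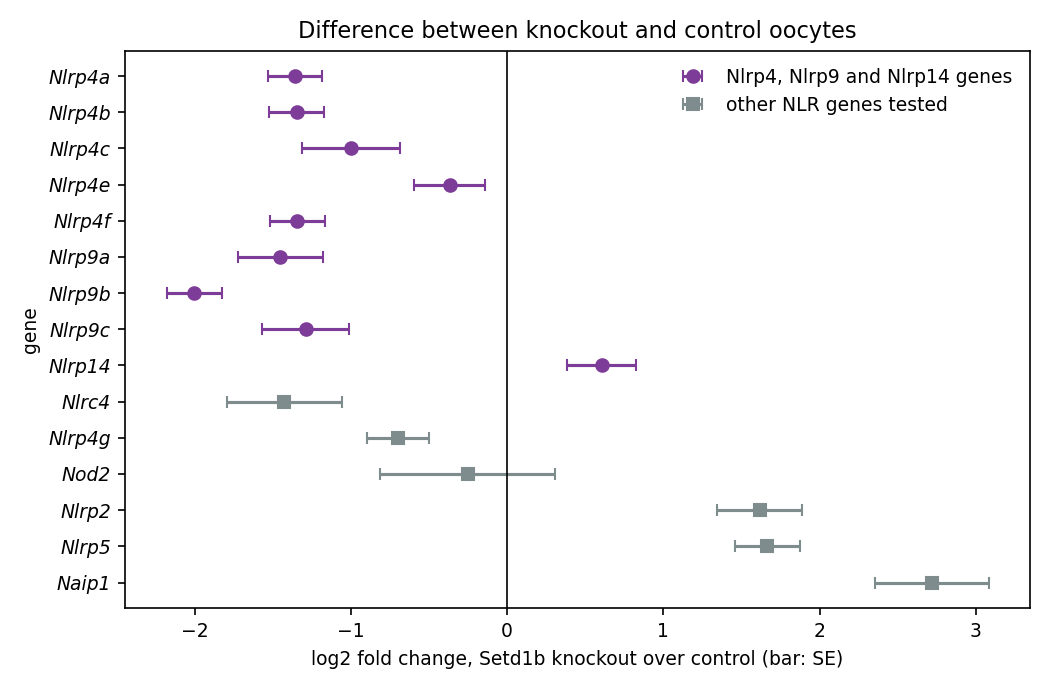
Log2 fold change of Setd1b knockout over control oocytes with its SE for the 9 genes (circles, top) and the 6 other NLR genes that were tested (squares, bottom), from the fit across all genes with 4 libraries in each group. Nlrp4a, Nlrp4b, Nlrp4f, Nlrp9a and Nlrp9c lie between -1.45 and -1.29, Nlrp9b at -2.0 and Nlrp14 at 0.60, while Nlrp2, Nlrp5 and Naip1 lie above Nlrp14.

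The partners that would turn NLR proteins into inflammasomes were scarcely measured. Of 12 inflammasome and innate signalling genes, 4 could be tested and edgeR called 0 of them, with 0 at an unadjusted p under 0.05 and 0 called by DESeq2. Over all genes tested 25.8% were called in either direction, so 0 of 4 does not set these genes apart. The 4 tested were Nek7, Txnip, Cgas and Ripk2, with log2 fold changes from -0.35 to 0.07. The gasdermin gene Gsdmd, Casp4 and Aim2 had no count in any library. The adaptor Pycard held 20 counts in knockout and 1 in control oocytes, Casp1 held 2 in knockout and 7 in control, and Il1b held 12 in knockout and 0 in control, sums over 4 libraries of each group. Single libraries carried these sums: all 20 Pycard and all 12 Il1b counts were in knockout replicate 1, and all 7 control counts of Casp1 in control replicate 4. At this depth a level under 0.225 to 0.331 CPM, the worth of 3 counts in a library, cannot be told from absence.

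The partners of oocyte NLR proteins gave a mixed picture. Of 9 genes, 8 were tested, 5 were higher and 2 lower in knockout oocytes, where 13.6% and 12.2% of all genes tested were called in these directions, and the median log2 fold change was 1.35. Nlrp5 and Nlrp2 are on this list as well as among the NLR genes above. Besides Nlrp5 and Nlrp2 the higher ones were Padi6 of the cytoplasmic lattices (1632 ± 771 CPM in knockout and 285 ± 35.8 CPM in control oocytes, SD, n = 4 each; edgeR adjusted p = 0.000213), Tle6 (log2 fold change 1.09 ± 0.22, SE) and Khdc3 (2.87 ± 0.66, SE), both of the subcortical maternal complex. Khdc3 was near the limit of detection in control oocytes, at 38, 12, 26 and 3 counts. Its mean was 13.9 ± 2.60 CPM in knockout and 1.90 ± 1.71 CPM in control oocytes (SD, n = 4 each). Lower were Ooep, a further subunit (log2 fold change -0.86 ± 0.21, SE, edgeR adjusted p = 0.0105), and Zbed3, an associated protein (-0.57 ± 0.17, SE, edgeR adjusted p = 0.0278). Scaled by library totals alone, neither passed (log2 fold changes of -0.46 and -0.19). Zbed3 also did not pass without knockout replicate 1, 2 or 3 or control replicate 2 or 3. Uhrf1, the reported partner of Nlrp14, measured 619 ± 89.1 CPM in knockout and 695 ± 139.8 CPM in control oocytes (SD, n = 4 each) and did not pass the test. Slc8b1 had no count in any library.

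Few genes next to the 9 were active in these oocytes. Of 42 protein-coding neighbours, 3 on each side of each gene in GENCODE M21, 40 were in the table, 21 had no count and 6 were tested. Olfactory and vomeronasal receptor genes made up 20 of the 42, none of them tested. Nlrp5 was the neighbour called higher and 2 were called lower, where 13.6% and 12.2% of all genes tested were called in these directions. Lower were Ceacam20, a cell adhesion gene next to Nlrp9b on the same strand, at 38.6 ± 5.89 CPM in knockout and 114 ± 13.9 CPM in control oocytes (SD, n = 4 each; log2 fold change -1.57 ± 0.19, SE, edgeR adjusted p = 0.000291), and Mfsd14b, a transporter-like gene near Nlrp4f, at 279 ± 91.2 CPM in knockout and 579 ± 260.1 CPM in control oocytes (SD, n = 4 each; log2 fold change -1.05 ± 0.33, SE, edgeR adjusted p = 0.0329). Ceacam20 ends at base 19991104 of chromosome 7, upstream of the start of Nlrp9b in the count table, 20008023. In GENCODE M21 Nlrp9b starts further upstream, 361 bases from the end of Ceacam20. Whether transcripts span both genes was not tested. Mfsd14b did not pass without knockout replicate 1, 2 or 4 or control replicate 1 or 4, with log2 fold changes from -1.04 to -0.85 in these 5 fits. Igsf23, Cyp2a4 and Cyp2b23 were tested and not called, with log2 fold changes of 0.37 ± 0.27, 0.98 ± 0.97 and 1.65 ± 0.90 (SE).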

How the data were processed

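The genes and gene lists described here were chosen with earlier results of these data known. Single oocytes were lysed and their RNA was amplified with a SMARTer kit (priming on poly(A), no molecular identifiers) and sequenced as single 75-base reads, per the labels' protocols. GSNAP, featureCounts 1.4.4, DESeq2 1.3.79 and the build mm10 were used, per the submitters' processing notes. The deposited counts per gene came from featureCounts on Ensembl release 69 without strand, with a minimum mapping quality of 1, per the file headers; how multiply mapped reads were handled beyond that is not given in the sources used here. The authors' deposited comparison table gives log2 fold changes, their standard errors and a test statistic (a score with no fixed range), p-values, RPKM and, for each library, a normalized signal, and lists 2709 genes. It was set beside the counts only.

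The quasi-likelihood F test of edgeR 4.0.16 (R 4.3.3) was run on the counts with TMM factors, filterByExpr and genotype alone, with p-values adjusted by Benjamini-Hochberg over 11066 genes, with a threshold of 0.05. CPM used TMM-scaled totals and RPKM the deposited gene lengths. The fold changes' SE is the size of the change over the square root of F. Totals were 9488899 to 13519404 counts. The SE and SD given are over oocytes. Libraries of a group correlated at 0.931 to 0.958 on log2(CPM + 1) and none was a duplicate. Replicate numbers gave no sign of pairing the oocytes. Symbols matched 35449 of 37224 identifiers. Windows of 75 bases and coding sequences came from GENCODE M21. Coding bases were aligned in place of the protein alignment first planned. Named were all 9 genes, every tested neighbour and every tested gene of the NLR, inflammasome and partner lists. The 3 nearest profiles of the most abundant Nlrp4, Nlrp9 and Nlrp14 gene were named too. Not all tested cell type markers were named. Alternatives were median-of-ratios factors, library totals, DESeq2 1.42.0, no filter, a minimum of 10 CPM in 4 libraries, a replicate block, removal of a length trend (loess, span 0.5), each library left out and an adjusted p of 0.01. Extending them to partners, neighbours, nearest profiles and Setd1b was chosen after seeing the data.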

Additional observations from a re-analysis of the deposited data

Results flagged for a closer look

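Each value below lay apart from the other 3 libraries of its group, with a gap to the nearest above 0.83 of the group's range. Chance marks about 1 in 20 groups, and 7 of 80 were marked, none of them in the 9 genes. Nlrp4g was highest in knockout replicate 3 (237 CPM), and Tle6 was highest in knockout replicate 1 (304 CPM). Naip1 (20.1 CPM) and Uhrf1 (485 CPM) were lowest in knockout replicate 3. Gdf9 was highest in knockout replicate 1 (5235 CPM). Cgas was highest in control replicate 3 (113 CPM), and Kitl was lowest in control replicate 4 (14.5 CPM).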

How the results depend on the processing

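The log2 fold changes of Nlrp4a, Nlrp4b, Nlrp4f, Nlrp9a, Nlrp9b and Nlrp9c kept their direction and passed the threshold under all 16 alternatives, with Nlrp9b between -2.39 and -1.61. Of the 9 genes, 6 to 8 were called lower. Library totals alone shifted the median of all genes from 0.10 to 0.49, and with them 2382 genes were called higher and 504 lower, against 1503 and 1347. Nlrp4c was then -0.62, Nlrp14 1.02 and the Nlrp4 sum -0.92, 1 of the 9 genes was called higher, and lower calls were 0 among other NLR and inflammasome genes, 0 among partners and 1 among neighbours. Reversed to above 0 were Nlrp4e (0.0025), Nod2 (0.12), Nek7 (0.028), Cgas (0.19), Ripk2 (0.16) and Uhrf1 (0.22). With a length trend removed 1028 genes were higher and 2332 lower, Nlrp4e was -0.75 and called, and Txnip (-0.36), Igsf23 (-0.18) and Ethe1 (-0.089) reversed.

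Without the filter Nlrp4c was -1.01 and not called. With at least 10 CPM it was -0.88, Nlrp14 was 0.74 and called, so that 1 of the 9 genes was higher, and 1 partner was lower. DESeq2 called Nlrp14 at 0.56, again 1 of 9. At an adjusted p of 0.01, 747 genes were higher and 644 lower, with 0 other NLR genes, 0 partners and 1 neighbour lower, and Nlrp4c (-1.0) was not called. With the replicate number as a block 861 genes were lower, Nlrp4c (-0.98) was not called, neither were Setd1b (-1.46) and Nlrc4 (-1.33), and 0 other NLR genes, 1 partner and 1 neighbour were lower. Same-numbered oocytes showed no shared deviation (correlations -0.117 to -0.021). The numbers thus gave no sign of pairing, which these correlations cannot exclude. Leaving out 1 library gave 837 to 1244 genes lower, 0 to 1 of the 9 higher, and 1 to 2 other NLR genes, partners and neighbours lower. Nlrp4c then ran from -1.15 to -0.83 and Nlrp14 from 0.47 to 0.81. Nod2 ran from -0.44 to 0.0058, reversed without control replicate 3, and Txnip from -0.087 to 0.16, reversed without control replicate 4. The cause of these changes was not tested. Nlrp4c had the fewest counts of the 9 genes, at 135 to 468 per library.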
